A study of Mus musculus with 2 samples.

Results

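Il2ra-positive Foxp3-negative thymic cells from a mouse without Lta were compared with the same class of cells from an Lta-sufficient mouse. The 538 cells were chosen by their own unique molecular identifier (UMI) counts. Each had at least 1 Il2ra UMI, no Foxp3 UMI and no UMI of Lyz2, Jchain or Dntt (markers of myeloid, plasma and recombining cells), at least 500 genes, at most 10% mitochondrial UMIs and at least 80% of its hashtag counts from 1 hashtag. They were taken from 4453 cells with a genotype among 4798 barcodes, and 250 of them came from the Lta-/- mouse and 288 from the control. The Il2ra, Foxp3, Lyz2, Jchain and Dntt values therefore describe the choice and are not results.

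Both mice were C57BL/6 and carried Foxp3eGFP, a reporter that makes cells with the transcription factor Foxp3 fluoresce. The control was Foxp3eGFP alone and the other mouse was Foxp3eGFPxLta-/-, which also lacked Lta. No source used here gives the age of the mice or how the Lta allele was made. CD8 and CD11c were used to deplete thymus suspensions, and live CD4+ CD8- CCR6- CD3e+ cells with CD25, eGFP or both were then sorted, 20000 per mouse. A barcoded CD45 antibody marked each mouse, and both were loaded into 1 well for 3' single-cell RNA sequencing (10x Genomics). Only 1 mouse stood on each side. No difference below has a replicate check or a p-value, and the 95% intervals cover counting error only. Fewer cells that make a transcript and less of it per cell were told apart only through the shares of cells given beside the levels.

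Developing regulatory T (Treg) cells in the thymus are thought to pass through CD25-positive Foxp3-negative and CD25-low Foxp3-positive precursors. CD25, encoded by Il2ra, is the alpha chain of the IL-2 receptor, whose STAT5 signal turns on Foxp3 in cells that have met self antigen through the T cell receptor (TCR). Lymphotoxin alpha, the product of Lta, is a tumour necrosis factor (TNF) family ligand. It signals as a homotrimer through TNF receptors or, bound to lymphotoxin beta (Ltb), through the lymphotoxin beta receptor on stromal cells, including the medullary epithelium that displays self antigens to thymocytes. A cell without a Foxp3 UMI may still hold Foxp3 protein, since droplet sequencing misses many transcripts, so the class is named here by its UMIs and not as a precursor stage.

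Exactly 1 Il2ra UMI, the least the choice allowed, was present in 134 of the Lta-/- cells and 150 of the control cells. At 5 or more Il2ra UMIs there were 20 and 33 cells. Just outside the choice lay 87 Lta-/- and 100 control cells that had Il2ra and a single Foxp3 UMI. The Il2ra level of the chosen cells was 331 UMIs per 1000000 (CPM) in Lta-/- and 329 CPM in control cells. Genes of T cell identity and of Treg-lineage cells ran high. Cd3e was found in 96.0% of Lta-/- and 95.5% of control cells, and Ikzf2, which encodes the Treg-associated factor Helios, in 84.0% and 86.8%. Summed over 10 markers of CD25-positive Treg-lineage cells, the level was 5260 CPM in Lta-/- and 5078 CPM in control cells.

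The class held 1527967 UMIs in Lta-/- cells (median 5508 per cell) and 1944969 in control cells (median 5950), with median mitochondrial shares of 1.61% and 1.62%. Markers of other cells were summed per list. The erythroid list had 0 of 9 markers detected. Gamma-delta T markers summed to 17.02 CPM in Lta-/- and 29.8 CPM in control cells (9 of 11 detected), natural killer markers to 41.9 and 62.2 CPM (8 of 16, with Ncr1, Klrb1c and Tyrobp at 0), B cell markers to 84.4 and 78.2 CPM (5 of 10, with Pax5 and Ebf1 at 0) and thymic epithelial markers to 59.6 and 45.2 CPM (4 of 10, with Foxn1 and Aire at 0). The myeloid and dendritic list was at 168 and 172 CPM (7 of 14, with Csf1r and Itgax at 0), nearly all of it from Cst3 and Cd74. Plasma cell markers summed to 54.3 and 51.9 CPM, innate-like T markers to 361 and 351 CPM, and CD8 single-positive markers to 116 and 160 CPM. Lists for double-positive and double-negative thymocytes stood at 247 and 240 CPM and at 778 and 752 CPM, and the latter list shares Cd3e, most of its UMIs, with T cell identity. Xist, the X-inactivation RNA, was at 997 CPM in Lta-/- and 1005 CPM in control cells.

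Lta itself was checked first, because the names of the hashtags and the antibody numbers in the labels' protocols point to opposite mice. The cells under the hashtag whose name starts with Lta are called Lta-/- throughout. They held 12 Lta UMIs, or 7.85 CPM (exact Poisson 95% interval 4.06 to 13.7). Control cells held 136, or 69.9 CPM (58.7 to 82.7). At least 1 Lta UMI was found in 4.4% of Lta-/- cells and 27.1% of control cells, and in 2.55% and 17.8% after each cell was thinned to 3000 UMIs. The log2 ratio of Lta-/- over control was -3.15 (-4.14 to -2.30). The direction of every comparison below rests on this naming. Lta was also low in the Lta-/- cells of the other classes. It stood at 10.5 against 91.8 CPM in cells with both Il2ra and Foxp3, 6.21 against 33.5 CPM in cells with Foxp3 only, and 4.48 against 20.8 CPM in cells with neither. Residual transcript of the altered allele and Lta RNA from control cells of the same well cannot be told apart.

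The class made up 11.9% of the Lta-/- cells without Lyz2, Jchain or Dntt (250 of 2104 cells, exact 95% interval 10.5 to 13.3) and 14.01% of the control cells (288 of 2056, 12.5 to 15.6). After thinning to 3000 UMIs the shares were 10.2% and 12.2%. With at least 2 Il2ra UMIs required they were 5.51% and 6.71%. The share was lower in the Lta-/- mouse under each of these rules. The intervals overlapped in the first pair and also after thinning (8.91 to 11.7 and 10.8 to 13.7), and the sort gate can set such shares. For comparison, 2 other groups were pooled over the mice with no hashtag requirement. Ccr9 encodes a receptor of less mature CD4 cells. Of 333 cells with at least 3 Ccr9 UMIs and no Lyz2, Jchain or Dntt, 18 met the same Il2ra and Foxp3 rule (5.41%, 3.23 to 8.41). Their median depth was 5887 UMIs, against 5310 and 5468 for the assigned Lta-/- and control cells without those 3 transcripts. Of 20 cells with at least 5 UMIs of Lyz2 or Jchain, 2 met the rule (10%, 1.23 to 31.7).

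Few genes passed 1.5-fold between the 2 mice. Of 6531 genes with at least 50 UMIs over both mice, 192 were at least 1.5-fold higher in Lta-/- cells (2.94%) and 226 at least 1.5-fold lower (3.46%). The median log2 ratio of all of them was 0.0051. Among the 418 genes past 1.5-fold, 323 had an interval that reached more than 1.5-fold to each side on average, so that most rested on few UMIs. Of the 1010 genes with at least 500 UMIs, 1 was higher (H2-Q7) and 6 were lower. Those 6 were Stmn1, Isg15, Hmgb2, Nrip1, Rps2 and Gm47283, named here as all that passed at that depth. Rps2 and Gm47283 lie outside the rule for named genes and were picked after their values were seen.

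**Figure D1:**
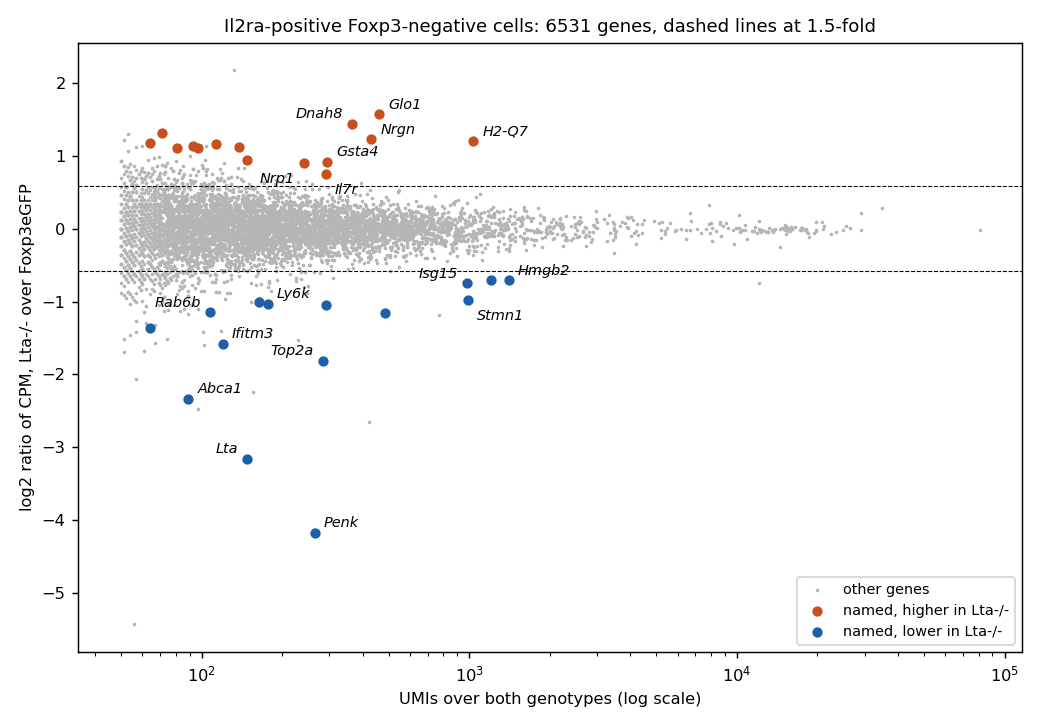
Log2 ratio of CPM (Lta-/- over Foxp3eGFP) of 6531 genes against their UMIs over both mice on a log scale, in Il2ra-positive Foxp3-negative cells, with the 30 named genes coloured and dashed lines at 1.5-fold. The spread narrows with depth, Penk and Lta lie at -4.18 and -3.15, and of the genes with at least 500 UMIs only 7 lie past the lines.

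Higher in the Lta-/- cells were 5 genes of chromosome 17, the Treg-associated genes Nrp1 and Gsta4, the IL-7 receptor and 7 others of the 15 named. Glo1, which encodes glyoxalase I, an enzyme that clears methylglyoxal, was at 211 CPM in Lta-/- and 71.0 CPM in control cells, a log2 ratio of 1.57 (1.28 to 1.87), with UMIs in 70.4% and 34.7% of cells. Dnah8, an axonemal dynein heavy chain, was at 162 and 59.6 CPM (log2 ratio 1.44, 1.12 to 1.78) and was seen in 47.2% and 27.4% of cells. After thinning, the intervals of the shares did not overlap for either gene, nor for H2-Q7 and Slc22a2 below. These genes were named by the same UMIs of the same cells, so the shares describe them and add no separate support. H2-Q7, a nonclassical MHC class I gene of the Qa group, was at 436 and 189 CPM (1.20, 1.02 to 1.39). Before thinning its shares of cells were closer, 66.8% and 59.4%. Its neighbour H2-Q6 was at 56.9 and 26.2 CPM (1.12, 0.60 to 1.65). The Qa genes are near-identical copies among which 3' reads can be split differently, so their single values are uncertain. Slc22a2, an organic cation transporter, was at 47.1 and 21.1 CPM (1.16, 0.59 to 1.75), in 18.4% and 11.5% of cells before thinning.

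Nrp1, a semaphorin co-receptor used as a marker of thymus-derived Treg cells, was at 93.6 CPM in Lta-/- and 49.9 CPM in control cells, a log2 ratio of 0.91 (0.53 to 1.30). Cells with Nrp1 made up 22.4% and 18.4%. Gsta4, a glutathione transferase found in the Treg list, was at 115 and 60.7 CPM (0.92, 0.58 to 1.27), in 23.6% and 16.0% of cells. Both ratios were smaller, at 0.27 for Nrp1 and 0.41 for Gsta4, when at least 2 Il2ra UMIs were required. Il7r, the receptor chain for the T cell survival cytokine IL-7, was at 108 and 64.3 CPM (0.75, 0.40 to 1.10), and its shares of cells were close, 22.8% and 17.7%. The Il7r ratio was 0.42 without cells that had Lrrc32 or Gpr83. The AP-1 component Jun was at 39.9 and 18.5 CPM (1.11, 0.49 to 1.75), in 10.8% and 8.33% of cells.

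The remaining higher genes, apart from Nrgn, stood between 26.8 and 58.2 CPM in Lta-/- cells. Slc17a9, the vesicular nucleotide transporter, had a log2 ratio of 1.32 (0.58 to 2.09), Gprin3 of 1.14, Hdhd5 of 1.11, Isoc2b of 1.18 and AI467606 of 0.94 (0.45 to 1.44). AI467606 was found in 28.0% of Lta-/- and 16.3% of control cells. Nrgn, which encodes the calmodulin-binding protein neurogranin, had 279 UMIs in Lta-/- cells, or 183 CPM, against 151 or 77.6 CPM in control cells (1.23, 0.94 to 1.53). A single cell held 51.3% of the Lta-/- Nrgn UMIs. Without the Nrgn-richest cell of each mouse the ratio was 0.71, and without cells that had Mki67 or Top2a it was -0.07.

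Lower in the Lta-/- cells were Penk, Abca1, genes of the cell cycle and genes of the interferon response. Penk, which encodes the opioid precursor proenkephalin and is made by some Treg cells, had 11 UMIs in 5 Lta-/- cells (7.199 CPM) and 253 UMIs in 25 control cells (130 CPM). Its log2 ratio was -4.18 (-5.20 to -3.31), and no single control cell held more than 16.6% of the UMIs. It was -2.94 without cells that had Lrrc32 or Gpr83, genes of Foxp3-positive cells. Abca1, the cholesterol exporter, was at 7.85 CPM in Lta-/- and 39.6 CPM in control cells (-2.33, -3.35 to -1.45) and was found in 4.4% and 17.01% of cells.

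Nrip1, a corepressor of nuclear receptors, was at 258 CPM in Lta-/- and 419 CPM in control cells. Its log2 ratio was -0.70 (-0.88 to -0.52), and 56.0% and 76.0% of cells had a UMI. Rab6b, a GTPase of Golgi transport, was at 18.3 and 40.6 CPM (-1.15, -1.83 to -0.51), in 9.2% and 24.0% of cells. Ly6k, a surface protein of the Ly6 family, was at 32.1 and 65.3 CPM (-1.03, -1.53 to -0.54), in 11.2% and 24.0% of cells. The Ly6k ratio was -0.28 when at least 2 Il2ra UMIs were required. For Nrip1, Rab6b, Abca1, Penk and Lta the intervals of the thinned shares did not overlap between the mice. The same UMIs had named these genes, so this too is a description and no separate support.

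**Figure D2:**
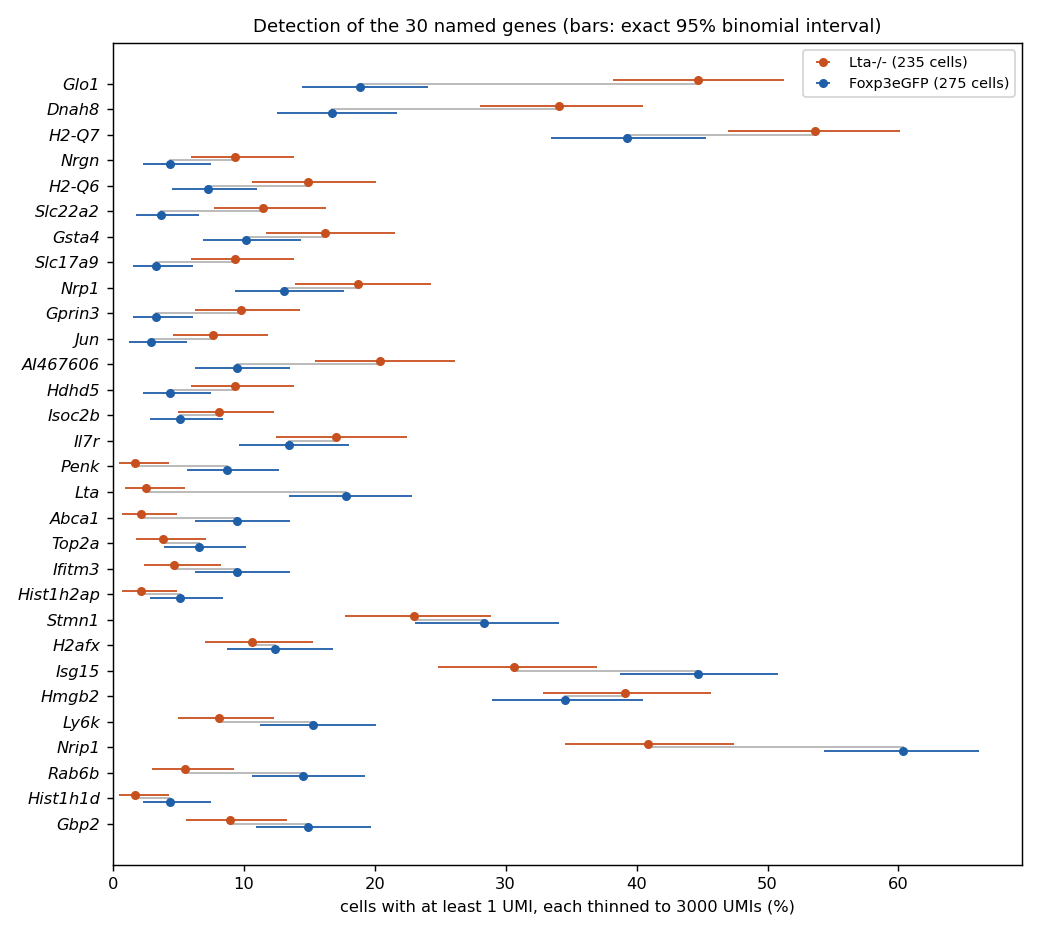
Share of cells with at least 1 UMI of each of the 30 named genes after every cell was thinned to 3000 UMIs, in 235 Lta-/- and 275 Foxp3eGFP cells, with exact 95% binomial intervals that cover counting error only. Glo1 was at 44.7% and 18.9% and Nrip1 at 40.9% and 60.4%, whereas Hmgb2, lower in summed UMIs, was at 39.1% and 34.5%.

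Genes of proliferation were lower in sum, and much of the size of the difference came from few cells. The 26 genes of the list summed to 2676 CPM in Lta-/- and 4182 CPM in control cells, a log2 ratio of -0.64 (-0.70 to -0.59). Of 22 members with at least 50 UMIs, 12 were at least 1.5-fold lower, none was higher, all 22 lay below 0 and the median was -0.75, beside 3.46% and a median of 0.0051 over all genes. Top2a, the topoisomerase that untangles replicated chromosomes, had a log2 ratio of -1.81 (-2.27 to -1.37), from 52 UMIs in 16 Lta-/- cells and 232 UMIs in 22 control cells. Mki67, the proliferation marker, had 22 UMIs in 5 cells and 133 in 12 (-2.25). Hist1h2ap and Hist1h1d, histone genes of dividing cells, had ratios of -1.16 and -1.36, and Hist1h2ap was found in 7.2% and 7.64% of cells. Stmn1, a microtubule regulator, was at 183 and 362 CPM (-0.98, -1.19 to -0.78), and H2afx, a histone variant of the DNA damage response, at 52.4 and 108 CPM (-1.05).

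Hmgb2, a chromatin protein that runs high in cycling cells, was at 300 CPM in Lta-/- and 488 CPM in control cells (-0.70, -0.87 to -0.54), and a single cell held 22.5% of its UMIs in the former and 20.02% in the latter. It was found in 55.6% of Lta-/- and 50.7% of control cells, the reverse order of the summed level. Without the 5% of cells with the most UMIs in each mouse, the ratio of Hmgb2 was 0.24, that of Top2a and of H2afx -0.26 and that of the list -0.28. Without cells that had Mki67 or Top2a, the list stood at -0.26, Hmgb2 at 0.21 and Hist1h2ap at 0.57, and Hist1h1d was at 0.0044 after thinning. The list's median share of a cell's UMIs was 0.173% in Lta-/- and 0.206% in control cells, also lower in the former.

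Genes of the interferon response were slightly and broadly lower. Interferons act through transcription factors that include IRF9 and bind interferon-stimulated response elements (ISRE) with repeated GAAA cores, and the genes they turn on include antiviral and guanylate-binding proteins. The promoters of 6 list members at least 1.5-fold lower are shown in part because each holds that repeat, GAAANNGAAA on either strand. Sequences are from RefSeq on build GRCm38.p6, 5′ to 3′ in the direction of the gene, with the match in capitals (as its reverse complement where it lies on the other strand). Among the 38 list members with a RefSeq promoter (250 bases before to 50 after the gene start), 23 held the motif. It was held by 3.99% of all 27025 genes with a promoter and 4.16% of 5263 measured ones. The list was made of interferon response genes, so this contrast describes the list and is no result of these data. The promoters of members within 1.5-fold held the motif in 16 of 28 cases, so it was also common among members that stayed within the fold.
Isg15 (chr4:156200850-156200921, minus strand): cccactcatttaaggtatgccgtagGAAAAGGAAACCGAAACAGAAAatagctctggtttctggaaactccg
Gbp2 (chr3:142620579-142620638, plus strand): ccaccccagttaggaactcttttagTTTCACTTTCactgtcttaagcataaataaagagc
Rsad2 (chr12:26456538-26456597, minus strand): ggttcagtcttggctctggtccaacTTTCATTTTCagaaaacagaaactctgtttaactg
Ifit3 (chr19:34583348-34583407, plus strand): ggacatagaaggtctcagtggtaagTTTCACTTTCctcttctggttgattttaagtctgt
Ifit3b (chr19:34607744-34607803, plus strand): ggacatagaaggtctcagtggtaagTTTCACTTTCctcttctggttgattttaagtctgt
Ifi208 (chr1:173673582-173673641, plus strand): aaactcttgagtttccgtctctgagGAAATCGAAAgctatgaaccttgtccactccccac
Isg15 carries 3 overlapping matches, and the windows of Ifit3 and Ifit3b are the same letter for letter, as these 2 neighbours are near-identical copies whose reads may be shared.

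The interferon list summed to 7295 CPM in Lta-/- and 8535 CPM in control cells, a log2 ratio of -0.23 (-0.26 to -0.19). Of 42 members with at least 50 UMIs, 37 lay below 0, 6 were at least 1.5-fold lower, none was higher and the median was -0.21, beside 3.46% lower, 2.94% higher and a median of 0.0051 over all genes. Isg15, an interferon-induced ubiquitin-like modifier, was at 204 CPM in Lta-/- and 342 CPM in control cells (-0.75, -0.94 to -0.55), and 41.2% and 58.7% of cells had a UMI. Gbp2, a guanylate-binding protein, was at 30.1 and 60.2 CPM (-0.999, -1.52 to -0.49). Rsad2, the antiviral viperin, had a ratio of -0.90, Ifit3 of -0.89, Ifit3b of -0.76 and Ifi208 of -0.68, on 19 to 102 UMIs in Lta-/- cells. Ifitm3, an antiviral membrane protein that was named by its ratio and is not on the list, was at 16.4 and 48.8 CPM (-1.58, -2.28 to -0.93), with 30.5% of the control UMIs in 1 cell. With at least 2 Il2ra UMIs required, its ratio was -0.61.

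Among regulators of the response, Stat2, Irf9 and Irf7 had log2 ratios of -0.17, -0.12 and -0.17, and Ifi27l2a, the most abundant member, was at 2579 and 2990 CPM (-0.21). The 5 members above 0 were Ifit2 (0.18), Ifi203, Ifi209, Ifi214 and Slfn8. The median cell gave 0.638% of its UMIs to the list in Lta-/- and 0.774% in control cells. In the other classes the list's ratio was -0.33 (Il2ra and Foxp3), -0.43 (Foxp3 only) and -0.42 (neither), all below 0. Its size depended on which cells were counted. It was -0.08 without cells that had Lrrc32 or Gpr83, -0.12 when cells with Lyz2, Jchain or Dntt were kept, and -0.35 when at least 2 Il2ra UMIs were required.

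**Figure D3:**
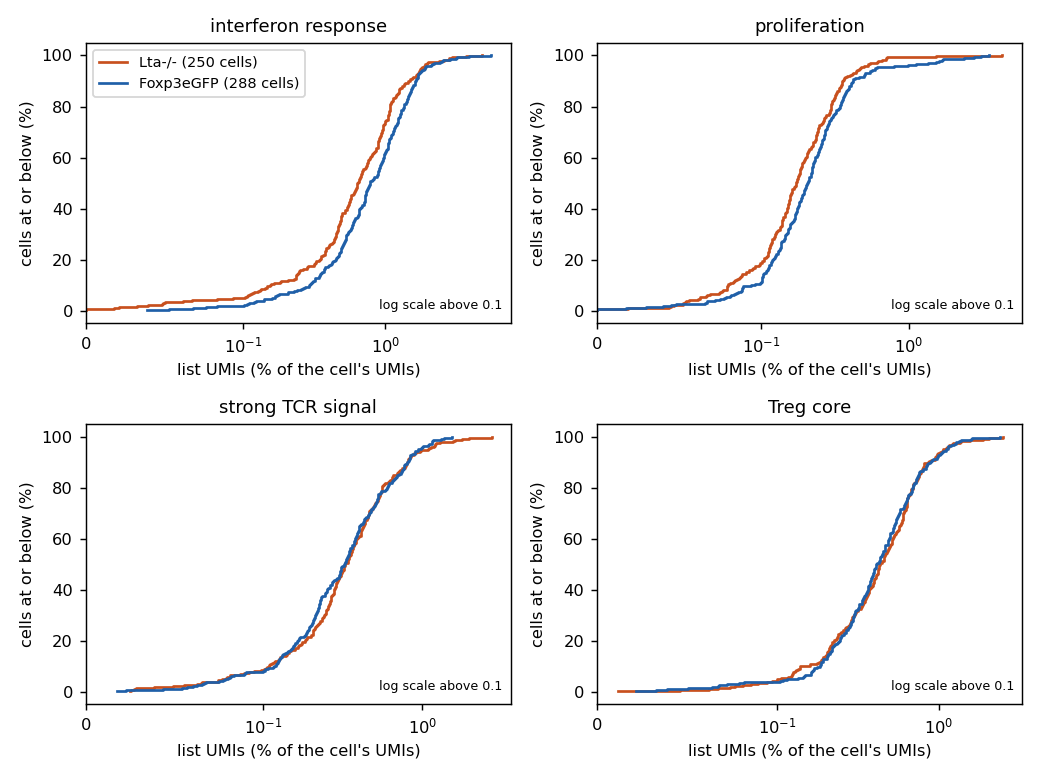
Cumulative share of Il2ra-positive Foxp3-negative cells (percent of 250 Lta-/- and 288 Foxp3eGFP cells) against the share of a cell's UMIs from each of 4 gene lists, on an axis that is linear to 0.1% and logarithmic above. The Lta-/- curve lies to the left for the interferon list (medians 0.638% and 0.774%) and for proliferation (0.173% and 0.206%), and the curves for strong TCR signal (0.327% and 0.321%) and Treg core (0.433% and 0.414%) lie close together.

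Genes induced by strong TCR signals, a hallmark of cells chosen for the Treg lineage, summed to 4062 CPM in Lta-/- and 3698 CPM in control cells (log2 ratio 0.14, 0.09 to 0.18). Irf4 was the only 1 of 18 measured members past 1.5-fold (0.75, from 41 and 31 UMIs), and the median was 0.15. Egr3 (38 and 11 UMIs), Nr4a2 (32 and 16), Egr2 (27 and 20) and Spry2 (2 and 4) fell short of 50 UMIs and were not counted. A count of 1 in 18 lies near the share of all genes past 1.5-fold, 2.94% higher and 3.46% lower. Nr4a1, the immediate-early reporter of TCR signal strength, was at 133 and 110 CPM (0.28), Cd5, a negative regulator of TCR signalling, at 506 and 422 CPM (0.26), and Id3 at 293 and 225 CPM (0.38). Rel, an NF-kB subunit needed for Treg development, was at 256 and 329 CPM (-0.36). After thinning, the ratio of the list was 0.0079.

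The Treg core list was nearly level, at 4594 CPM in Lta-/- and 4442 CPM in control cells (log2 ratio 0.05, 0.0031 to 0.09, median 0.16). Gsta4 and Nrp1 of its 19 measured members were at least 1.5-fold higher and Penk was lower, beside 2.94% and 3.46% of all genes. Ctla4, an inhibitory receptor of Treg cells, was at 83.8 and 95.1 CPM (-0.18), Tnfrsf4 (OX40) at 1111 and 1190 CPM (-0.10) and Tnfrsf18 (GITR) at 596 and 625 CPM (-0.07). Izumo1r, the folate receptor family member FR4, was at 302 and 230 CPM (0.39), and Lrrc32, which presents latent TGF-beta, at 51.0 and 39.1 CPM (0.39). The effector Treg list had a ratio of 0.19 (0.11 to 0.27), with Maf at 0.82 and Ahnak at 0.84 among 12 measured members and S100a10 at 0.48. It stood at -0.11 when cells with Lyz2, Jchain or Dntt were kept.

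Receptors and signalling genes that act with lymphotoxin and TNF had small ratios. The TNF receptor and NF-kB list had a ratio of -0.06 (-0.11 to -0.02), with 0 of 25 members past the fold, a count little different from the 2.94% higher and 3.46% lower of all genes. Tnfrsf9 (4-1BB) was at 394 and 434 CPM (-0.14), Relb, the partner of Nfkb2 in the noncanonical pathway, at 71.3 and 85.9 CPM (-0.27), Nfkb2 at 60.2 and 65.8 CPM (-0.13) and Map3k14, the kinase of that pathway, at 22.3 and 26.7 CPM (-0.26). Ltbr had 0 UMIs in both mice, which allows up to 3 UMIs in each. Among the ligands, Ltb was at 859 and 824 CPM (0.06), and Tnf had 24 UMIs in each mouse. Tnfsf11 (RANK ligand), which acts on medullary epithelium, was at 38.0 and 24.7 CPM (0.62). The ligand list stood at 0.02 (-0.08 to 0.11), and at 0.10 (0.0067 to 0.19) with Lta left out of its sum.

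The IL-2 receptor and STAT5 list had a ratio of 0.04 (-0.02 to 0.11), and Il7r alone of 17 members was past 1.5-fold, close to the 2.94% higher and 3.46% lower of all genes. Il2rb and Il2rg, the other chains of the IL-2 receptor, were at -0.06 and -0.05, and Bcl2, a survival gene, at 402 and 401 CPM. Socs1, the STAT inhibitor, was at 166 and 205 CPM (-0.30). The IL-4 receptor and STAT6 list stood at -0.09 (-0.20 to 0.01), with Il4ra at 36.0 and 47.8 CPM (-0.41) and Stat6 at 39.9 and 56.0 CPM (-0.49), neither past 1.5-fold. Maf, a transcription factor of helper and effector Treg cells, was the member past 1.5-fold there (0.82, from 54 and 39 UMIs).

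Maturation and egress genes had a ratio of 0.10 (0.07 to 0.13), with Il7r past 1.5-fold among 22 members, and stood at -0.06 with at least 2 Il2ra UMIs. Klf2 and S1pr1, the regulator and the receptor of thymic exit, were at 0.04 and 0.20, and S1pr4 at 0.55. Of the immature CD4 list (0.0005, -0.06 to 0.06), Ccr9 of 11 measured members was lower, at 28.1 CPM in Lta-/- and 56.6 CPM in control cells (-1.01), with UMIs in 10.8% and 20.5% of cells. Themis and Cd24a were at 0.50 and 0.20. The chemokine receptor list stood at -0.06 (-0.17 to 0.05), where Ccr9 was again the 1 member past the fold and Gpr183 was at -0.40. Helper lineage regulators stood at 0.13 (0.06 to 0.20), with Maf (0.82) and Irf4 (0.75) higher and Id2 (-0.61) lower among 17 members. Over all genes, 2.94% were at least 1.5-fold higher and 3.46% lower, and counts on so few members are not results about these lists.

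Apoptosis genes were level in sum (-0.01, -0.07 to 0.06). Birc5, an inhibitor of apoptosis that also serves mitosis and so sits on the proliferation list too, was at 17.7 and 46.8 CPM (-1.40). Bcl2l11 (BIM), which drives deletion of self-reactive thymocytes, was at 130 and 168 CPM (-0.38). Ribosome biogenesis genes stood at -0.14 (-0.18 to -0.11), with Cad alone of 21 members past 1.5-fold (-0.65) and Myc at 0.04. The dissociation stress list stood at -0.09 (-0.13 to -0.05), with Jun alone of 16 past the fold. Secreted cytokines and chemokines stood at -0.25 (-0.34 to -0.16), and of 5 measured members Penk was lower and Ccl4 higher. Beside these counts of members, 2.94% of all genes were at least 1.5-fold higher and 3.46% lower. Counts on so few members are not results about the lists. Ccl4 had 103 UMIs in 6 Lta-/- cells and 29 in 8 control cells, and 1 cell held 78.6% of the former. With at least 2 Il2ra UMIs required (116 Lta-/- and 138 control cells), ribosome biogenesis stood at 0.10, secreted cytokines and chemokines at 0.10, dissociation stress at 0.06, IL-2 receptor and STAT5 at -0.09, lymphotoxin and TNF ligands at -0.26 and Treg core at -0.05, each with the opposite sign. MHC and antigen presentation and the genes beside Lta, described below, were then at -0.0068 and -0.024. With Lyz2, Jchain or Dntt cells kept, the TNF receptor, apoptosis and chemokine receptor lists turned to 0.0083, 0.05 and 0.0019, and the immature CD4 list to -0.013.

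**Figure D4:**
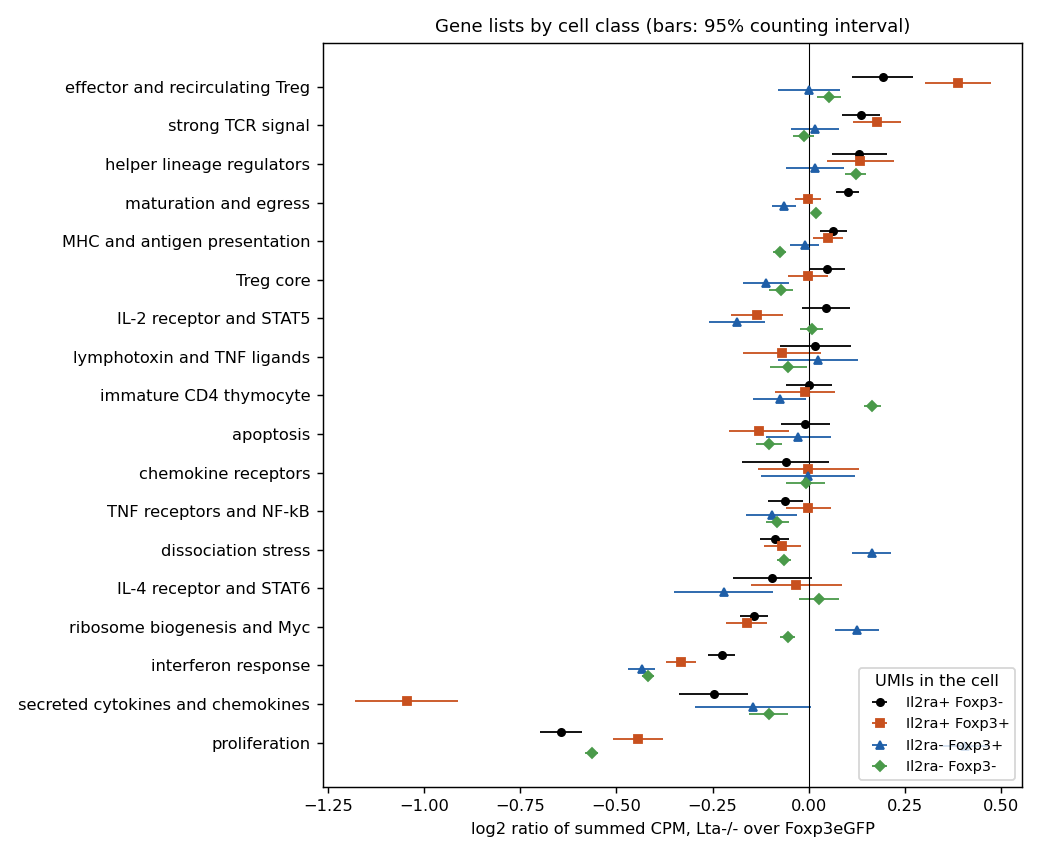
Log2 ratio (Lta-/- over Foxp3eGFP) of the summed CPM of 18 gene lists in 4 classes of cells defined by Il2ra and Foxp3 UMIs, with 95% counting intervals. In the Il2ra-positive Foxp3-negative cells (black) proliferation lies at -0.64 and interferon response at -0.23, and the interferon list lies below 0 in all 4 classes.

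The genes with the largest ratios were compared side by side with the other classes. No difference between classes was tested, and the classes share the same 2 mice and the same well. Glo1 had log2 ratios of 1.37 in cells with both Il2ra and Foxp3, 1.39 in cells with Foxp3 only and 1.32 in cells with neither. Dnah8 lay between 1.36 and 1.65 and H2-Q7 between 0.88 and 1.02 in those classes. Isg15 lay at -0.81, -1.03 and -0.79, Nrip1 at -1.11, -1.09 and -0.63, Rab6b at -0.70, -0.95 and -0.93, Ly6k at -1.44, -0.68 and -1.17, and Abca1 at -2.58, -1.34 and -1.33. These genes had the same direction in every class.

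Other genes varied more in size or sign. Penk was at -2.97 in cells with Foxp3 only and in cells with neither, but at -0.49 (-1.003 to 0.01) in cells with both, where it had 52 UMIs in Lta-/- and 96 in control cells. The shares of cells with Penk there were 2.34% in Lta-/- and 8.65% in control cells. In the Il2ra-positive Foxp3-negative cells they were 2.0% and 8.68%, so the smaller ratio was not matched by closer shares. Gsta4 was at 0.07, 0.17 and 0.40 in the other classes and Nrp1 at 0.43, -0.06 and 0.73. Slc17a9, Gprin3 and Hdhd5 had intervals that took in 0 in each of the other classes. Gbp2 was at 1.08 in cells with both and near 0 elsewhere. Top2a was at -0.76 in cells with both and -0.97 in cells with neither, but at 0.95 in cells with Foxp3 only, and the proliferation list stood at -0.44, -0.57 and 0.41 in the same order. The order of the mice in the summed UMIs of the cycling genes thus differed with the class. The shares of cells did not all follow. In cells with Foxp3 only, Top2a was found in 6.69% of Lta-/- and 7.66% of control cells. Stmn1 was found there in 26.4% and 27.8%, and Hist1h2ap in 9.62% and 8.06%.

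Several of the higher and lower genes lie on chromosome 17, which also carries Lta (chr17:35203165-35205578, build GRCm38.p6). Glo1 (chr17:30592861-30612659) and Dnah8 (chr17:30626935-30875762) are neighbours about 4.6 and 4.5 Mb from Lta, and H2-Q6 (chr17:35424850-35430055) and H2-Q7 (chr17:35439140-35443773) lie 0.22 and 0.24 Mb away. Within 5 Mb of Lta, 3 of 49 genes with at least 200 UMIs were past 1.5-fold (6.12%), and all 3 were higher. On other chromosomes it was 32 of 2462 (1.30%). Chromosome 17 as a whole was at 2.99% (4 of 134 genes), below chromosomes 4, 9 and 13 at 3.59%, 3.40% and 3.23% with the same minimum of UMIs. At 50 UMIs or more the shares were closer, 7.92% within 5 Mb and 6.24% on other chromosomes, and it was 10.6% between 5 and 15 Mb. The median ratio of the genes within 5 Mb was -0.0007. Lta was left out of these counts.

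Gfer, chosen after its values were seen, and Rps2 lie together at chr17:24693190-24696156 and chr17:24718121-24721927, 10.5 Mb from Lta. Gfer was at 30.8 CPM in Lta-/- and 59.6 CPM in control cells (-0.96), and Rps2, a ribosomal protein with many processed copies, at 2520 and 4215 CPM (-0.74, -0.80 to -0.69). Both were lower in all 4 classes. Slc22a2 lies 22.6 Mb from Lta (chr17:12584189-12628489) and was at 0.28, 0.71 and 0.43 in the other classes. Over all genes, 2.94% were at least 1.5-fold higher and 3.46% lower. Of the 22 measured genes of the list beside Lta, H2-Q6 and H2-Q7 were higher and Lta itself was lower. The nearest, Ltb, Nfkbil1 and Ddx39b, were at 0.06, -0.28 and 0.06, and the list stood at 0.11 (0.06 to 0.15), or 0.13 with Lta left out of its sum. The list of MHC and antigen presentation genes, part of the same region, stood at 0.06 (0.03 to 0.10), with H2-K1 at 1780 and 1781 CPM, H2-D1 at a ratio of 0.11 and only the 2 Qa genes of 16 past the fold. Which flanking DNA the Lta-/- mouse carries was not tested.

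**Figure D5:**
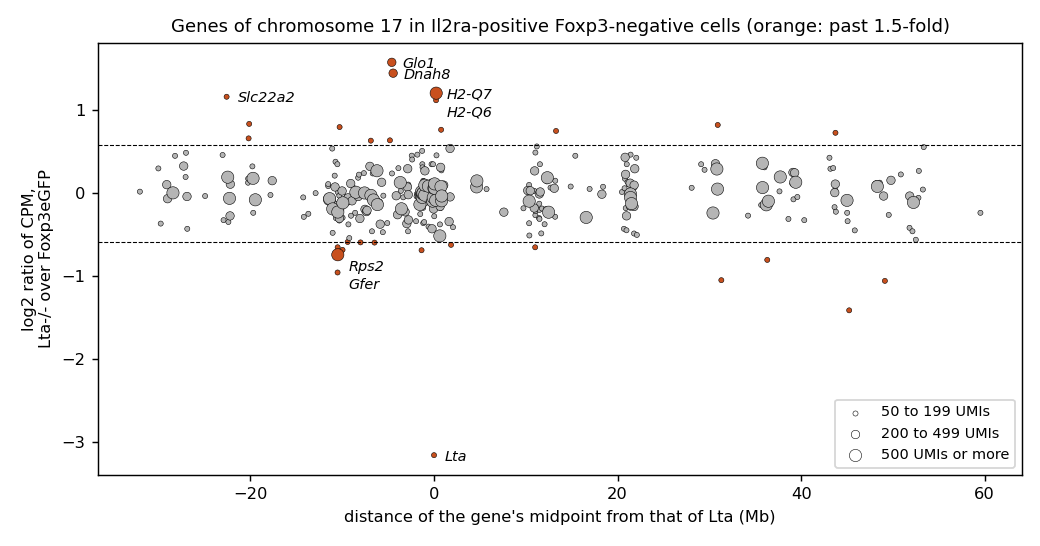
Log2 ratio of CPM (Lta-/- over Foxp3eGFP) of chromosome 17 genes with at least 50 UMIs in Il2ra-positive Foxp3-negative cells, against distance from Lta in Mb, with point size by UMIs and genes past 1.5-fold in orange. Glo1 and Dnah8 (1.57 and 1.44) stand together near -4.6 Mb, H2-Q7 and H2-Q6 beside Lta, and Rps2 and Gfer (-0.74 and -0.96) together near -10.5 Mb.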

How the data were processed

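The authors deposited raw UMI counts of 1 mRNA library, with the hashtag counts of its paired library in the same matrix. The submitters' processing notes name Cell Ranger 6.0.1 and mm10 (GRCm38). Its settings and the annotation release were not given in the sources used here.

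Genotypes were read from the hashtag feature names. The 185 cells with both hashtags were left out (27 would have joined the class), and doublets within a mouse cannot be seen that way. Of the cells with Il2ra and no Foxp3, 18 Lta-/- and 28 control cells were left out for Lyz2, Jchain or Dntt.

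Raw counts were summed per genotype and expressed as CPM. At 95%, a ratio has an exact interval from the binomial split of its UMIs between genotypes (Clopper-Pearson), a share a Clopper-Pearson interval and a level an exact Poisson interval. UMIs of 1 mouse are not replicates, so no test was run. Zero counts were set to 3 in ratios. A gene or list member was counted as higher or lower at 1.5-fold with at least 50 UMIs.

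Named were the 15 genes in each direction whose interval bound nearest 0 lay farthest from it, with UMIs in at least 20 cells of the higher genotype. Left out of that rule were the genes of the choice, mitochondrial, ribosomal protein, Gm, Rik, V(D)J and sex-linked genes. Members of the lists could be named as well. The members, the lists and the rules were chosen with earlier results of these data known. Marker lists covered other cell types. Positions and promoters came from RefSeq (GRCm38.p6), which placed 6484 of 6531 genes.

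Alternatives changed the scaling, depth, cell filters, the hashtag share, the Il2ra minimum and the cells counted. The calculation was tested on simulated data. Software was Python 3.11.15 with numpy 2.4.6, scipy 1.17.1, pandas 2.3.3 and matplotlib 3.10.9.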

Additional observations from a re-analysis of the deposited data

Results flagged for a closer look

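The results here had opposite directions in the Il2ra-positive Foxp3-negative cells and in another class of the same 2 mice, with intervals on either side of 0. The differences between classes were not tested, each class has 1 mouse per genotype, and all values are log2 ratios of Lta-/- over Foxp3eGFP.

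Cycling genes had the opposite order in summed UMIs, though not in all shares of cells, in cells with Foxp3 only. There the proliferation list stood at 0.41, Top2a at 0.95, Hist1h2ap at 1.72, Stmn1 at 0.31, H2afx at 0.60 and Hmgb2 at 0.54, against -0.64, -1.81, -1.16, -0.98, -1.05 and -0.70 in the Il2ra-positive Foxp3-negative cells. In the latter, Top2a came from 52 UMIs in 16 Lta-/- cells and 232 UMIs in 22 control cells.

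In cells with both Il2ra and Foxp3, Nrgn was at -3.16 (5 against 59 UMIs) and Il7r at -0.51, and Gbp2 was at 1.08. In the Il2ra-positive Foxp3-negative cells the same genes were at 1.23, 0.75 and -0.999.

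Several lists differed in sign by small amounts. In cells with Foxp3 only, Treg core stood at -0.11, maturation and egress at -0.064, dissociation stress at 0.16 and ribosome biogenesis at 0.13. In cells with neither transcript, Treg core stood at -0.073 and MHC and antigen presentation at -0.075.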

How the results depend on the processing

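Among the 30 named genes, 26 kept their direction in all 12 alternatives and 18 stayed past 1.5-fold in each of them (Top2a had 11). The exceptions were Hist1h1d (0.0044 after thinning to 3000 UMIs), Hmgb2 (0.24 without the 5% of cells with the most UMIs and 0.21 without cells that had Mki67 or Top2a), Nrgn (-0.072) and Hist1h2ap (0.57), both also without cells that had Mki67 or Top2a. The proliferation list was -0.36 after thinning, -0.38 as a mean of per-cell CPM, -0.50 with at least 2 Il2ra UMIs, -0.28 without the 5% of deepest cells, -0.76 with Lyz2, Jchain or Dntt cells kept, -0.43 without cells with innate or B cell UMIs, -0.76 without cells with Lrrc32 or Gpr83 and -0.26 without cells with Mki67 or Top2a. The interferon list was -0.26 as a mean of per-cell CPM, -0.35 with at least 2 Il2ra UMIs, -0.29 without the deepest cells, -0.12 with Lyz2, Jchain or Dntt cells kept and -0.084 without cells with Lrrc32 or Gpr83. Treg core was -0.0046 after thinning, -0.048 with at least 2 Il2ra UMIs, -0.0043 without the deepest cells and 0.14 with Lyz2, Jchain or Dntt cells kept. The class share was 10.2% in Lta-/- and 12.2% in control cells after thinning, and 5.51% and 6.71% with at least 2 Il2ra UMIs. With Lyz2, Jchain or Dntt cells kept, 340 genes were lower. The minimum set the number past 1.5-fold, with 62 higher and 69 lower at 100 UMIs and 553 and 602 at 20 UMIs. The cause of these shifts was not tested. No paired analysis was possible because each genotype has 1 mouse, and no replicate could be left out.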

Other observations

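Control cells of the class with and without an Lta UMI differed in more than Lta. All are cells of 1 mouse split by their own counts, 78 with Lta and 210 without, so the values are a description with counting intervals and no test, and a missing UMI does not show that a cell lacks the transcript. Median depths were 5862 and 6000 UMIs. Ltb, the partner of lymphotoxin alpha, was at 1189 CPM in cells with Lta and 689 CPM in cells without (log2 ratio 0.79, 0.64 to 0.93). Bcl2, a survival gene, was at 636 and 314 CPM (1.02, 0.81 to 1.23), and Izumo1r at 344 and 187 CPM (0.88, 0.60 to 1.16). The interferon-induced Ifit1 was at 310 and 119 CPM (1.38, 1.06 to 1.70) and Ifit3 at 148 and 67.6 CPM (1.13). Lower in cells with Lta were Tnfrsf9, at 242 and 505 CPM (-1.06, -1.35 to -0.79), Itm2a at 409 and 907 CPM (-1.15) and Xcl1, a chemokine for cross-presenting dendritic cells, at 41.9 and 256 CPM (-2.61), the last from 2 and 26 cells.

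By list, the cells with Lta were higher for interferon response (0.44, 0.39 to 0.49), proliferation (0.71) and IL-2 receptor and STAT5 (0.37), and lower for ribosome biogenesis (-0.59, -0.65 to -0.53), dissociation stress (-0.31) and immature CD4 thymocyte genes (-0.30). Gamma-delta T markers had 37 UMIs in the cells with Lta and 21 in those without. The strong TCR signal list was at -0.13 and Treg core at 0.14.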
